A study of Homo sapiens with 6 samples.

Results

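FTH1, PKM, TMSB4X, PFN1, L1CAM, YBX3, CLPTM1L, ECEL1, HN1 and CNPY2 are 10 of the 10859 genes with an m6A peak in this study. They were selected on the measured values: each had a peak in both DF2 siRNA lists, none in the control siRNA list, and a high rank by the authors' peak score. Of the 10859 genes, 387 (3.56%) had peaks in both DF2 siRNA lists and none in control, and all 10 are among them by construction, so nothing is read from that count. The genes were proposed under the name of abundant genes, but the deposited peak lists hold no RNA level, so abundance could not be checked.

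The cells were U2OS, a human bone osteosarcoma line of unmodified (WT) genotype, described in the labels as epithelial cells. They received DF2 siRNA 1, DF2 siRNA 2 or control siRNA, where DF2 stands for YTHDF2. Cytoplasmic RNA was fragmented, and 1 input and 1 m6A immunoprecipitate were sequenced for each of the 3 conditions. The data deposited were 1 merged peak list per condition, with 13147 peaks for DF2 siRNA 1, 13310 for DF2 siRNA 2 and 15272 for control siRNA. Without replicate lists, no difference could be set against replicate error and no test was made. A gene with no peak in control was not called there at an unknown depth. A higher methylated share, more RNA of the gene and a better sampled library cannot be told apart from a peak list.

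N6-methyladenosine (m6A) is a methyl mark that the METTL3–METTL14 complex writes into messenger RNA, mostly in a DRACH sequence: A, G or T, then A or G, then the methylated A, then C, then A, C or T. In most cells it is densest around stop codons and in 3′ UTRs. YTHDF2 is a cytoplasmic reader that binds m6A and recruits deadenylases, which shortens the life of the bound RNA. Antibodies against m6A also bind the related m6Am next to the cap, so peaks at the 5′ end of a transcript can contain either mark.

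The genes' first transcribed bases are shown because the peaks of most of them lie at the 5′ end. RefSeq start windows (GRCh38.p14, the assembly that hg38 names) were available for 9 of the 10 genes, in 12 windows, and the first 50 transcribed bases of each were searched for DRACH on the transcribed strand. How often peaks touch such bases was not computed over all genes. In 6 of the 9 genes, at least 1 window's first 50 bases touched a peak of both DF2 siRNA lists. Whether or not a peak lay there, a match was found in 3 of the 9, and in 2 it lay inside a peak of both lists. The windows of PKM, PFN1, L1CAM, YBX3, CLPTM1L and HN1 held no match. The capitals mark the matches, 5′ to 3′ on the transcribed strand.
TMSB4X, chrX:12975122-12975151, plus strand: gccactgcgcAGACCAGACTtcgctcgtac
ECEL1, chr2:232487795-232487824, minus strand: gcgggcgctgggAGACAccggacgcccgct
CNPY2, chr12:56315959-56315988, minus strand: aggcggtcgccgGGACAccccgtgtgtggc
The TMSB4X stretch holds 2 adjoining matches, AGACC and AGACT, and lies inside a peak of both DF2 siRNA lists. The CNPY2 match, GGACA, also lies inside the peak of both lists, and the ECEL1 match, AGACA, lies in the DF2 siRNA 1 peak alone. Of all 35116 RefSeq windows, 49.6% held a match in these bases, and 50.6% held one on the opposite strand. On that opposite strand, windows of PFN1, L1CAM and HN1 held one. The 3 genes with a match had 1 window each, so 3 of the 12 windows held a match, no excess over the 49.6% of all windows. A match is a description of these letters and does not mark a methylated base.

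The 10 genes had 14 peaks in the DF2 siRNA 1 list, 13 in the DF2 siRNA 2 list and 0 in the control list. All 10 had a DF2 siRNA 1 and a DF2 siRNA 2 peak sharing at least 1 base on the same strand, as did 98.5% of the 7477 genes with peaks in both lists. In 8 of the 10 (80%, 95% exact binomial interval 44.4 to 97.5), the highest-scored peaks of the gene shared a place, with TMSB4X and ECEL1 as the exceptions. By this measure the share was 91.0% in 377 other genes with peaks in both DF2 siRNA lists and none in control. It was 93.6% in the 7090 genes with peaks in all 3 lists. There were 11 sharing pairs of peaks, and in all 11 the DF2 siRNA 2 peak lay wholly inside the DF2 siRNA 1 peak. In 6 pairs the DF2 siRNA 1 peak was longer, and in 5 genes (FTH1, TMSB4X, CLPTM1L, HN1 and CNPY2) a pair had identical blocks. The share of such pairs over all genes was not computed. These counts of pairs are therefore not read as a trait of the 10 genes. Peaks were called on a grid, with 24 of the 27 covering a multiple of 200 bases, so identical ends need not be identical methylated sites.

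**Figure D1:**
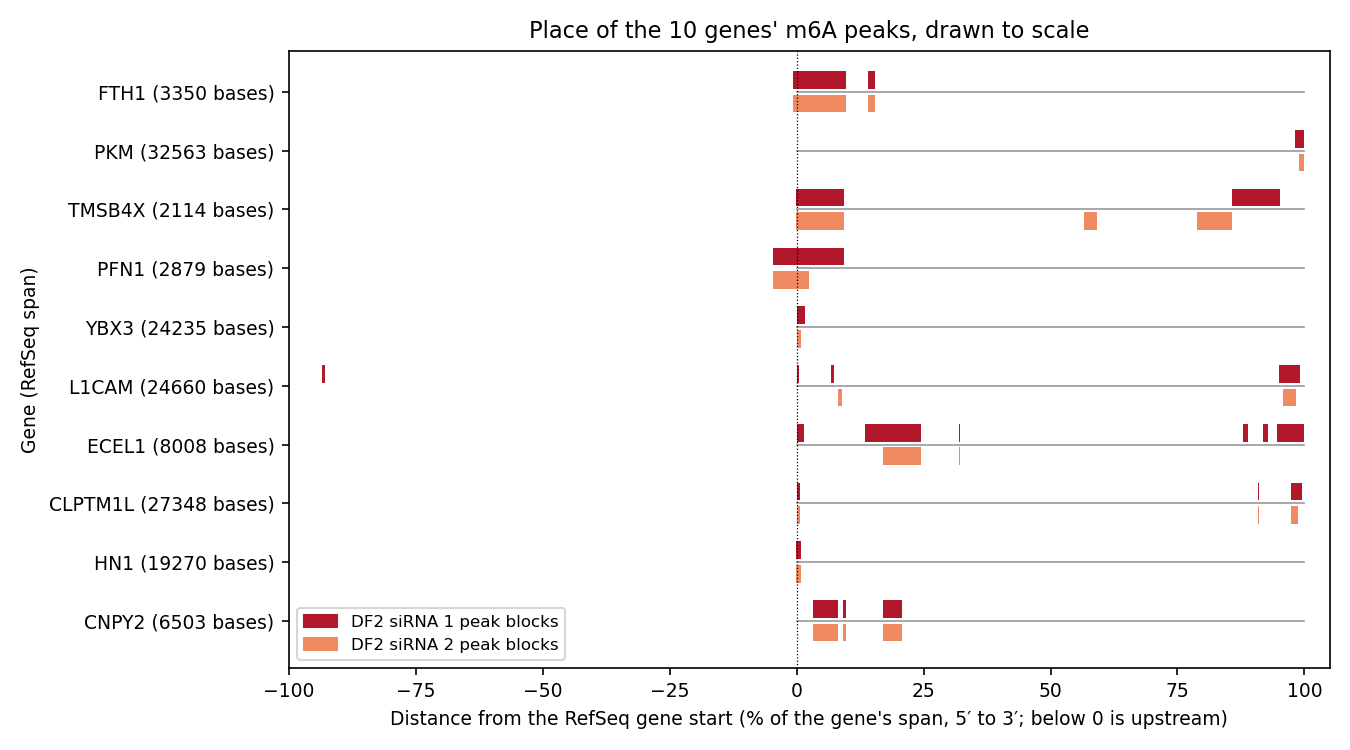
Position of every peak block of the 10 genes along the RefSeq gene (x axis, percent of the gene's span from its start, 5′ to 3′), with DF2 siRNA 1 above and DF2 siRNA 2 below each gene line. Blocks are to scale, and the control siRNA list has none to draw. FTH1, PFN1, YBX3, HN1 and CNPY2 have blocks in the 5′ part of the gene alone, and PKM has them in the 3′ UTR alone. TMSB4X, L1CAM, CLPTM1L and ECEL1 also have blocks elsewhere, among them the coding peak of ECEL1 with DF2 siRNA 2, which starts 1370 bases into the gene, and an L1CAM block with DF2 siRNA 1 far upstream of it.

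FTH1 (ENSG00000167996) encodes the ferritin heavy chain, the ferroxidase subunit of the cell's iron store. It had the highest score of the 387 genes. Its single peak had the same blocks in both DF2 siRNA lists, on the minus strand of chromosome 11 from 61967116 to 61967660 (hg38, as for all peak positions), 400 bases in 3 blocks. The peak began 26 bases upstream of the RefSeq start (-26) and was annotated by the authors as 5′ UTR, coding sequence and stop codon. The authors' fold enrichment was 70.7 in the DF2 siRNA 1 list and 26.0 in the DF2 siRNA 2 list. The −log10 FDR was 17.25 with DF2 siRNA 1 and 3.02 with DF2 siRNA 2. By score the peak stood at percentile 99.9 and 99.7 of these lists, while by −log10 FDR it stood at 85.5 and 33.3. Percentiles rank a peak within its own list, and values from different lists stand side by side and measure no change. The nearest control peak on that strand was 44091 bases away, in RP11-810P12.1.

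Among 14 other genes of iron storage and iron handling, 7 had a peak with DF2 siRNA 1, 7 with DF2 siRNA 2 and 7 with control siRNA, 6 of them in all 3 lists, among them SLC11A2, SLC39A14 and IREB2. None of the 14 had peaks in both DF2 siRNA lists and none in control. NCOA4, the receptor that delivers ferritin to autophagy, had a coding peak in every list, with folds of 22.4 with DF2 siRNA 1, 16.2 with DF2 siRNA 2 and 18.0 with control siRNA. TFRC, the transferrin receptor, had a peak with DF2 siRNA 1 alone.

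PKM (ENSG00000067225) encodes pyruvate kinase, the last enzyme of glycolysis. It was the one gene of the 10 whose peaks all lay in the 3′ UTR. The DF2 siRNA 1 peak ran from 72199029 to 72199599 on the minus strand of chromosome 15 and covered 571 bases. The DF2 siRNA 2 peak ended at 72199399 and covered 371 bases, all of them within the first. Fold enrichment was 31.3 with DF2 siRNA 1 and 16.8 with DF2 siRNA 2, and −log10 FDR was 6.78 and 2.04. Both peaks were above percentile 98 by score (98.2 and 98.4), but the DF2 siRNA 2 peak was at percentile 45.3 of its list by fold.

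Of 17 other glycolytic genes, 4 had a peak with DF2 siRNA 1, 5 with DF2 siRNA 2 and 4 with control siRNA, and 0 were peaked in both DF2 siRNA lists and not in control. HK2, ALDOA and ENO1 were in all 3 lists. ENO1, enolase, had a 5′ peak in all 3 lists with folds of 35.4 with DF2 siRNA 1, 21.8 with DF2 siRNA 2 and 16.3 with control siRNA. HK2, hexokinase 2, had a stop codon peak with the same ends in all 3 lists, from 74889378 to 74891495 on chromosome 2.

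Both actin monomer binding proteins among the 10 genes had peaks at the gene start. TMSB4X (ENSG00000205542) encodes thymosin β4, which holds actin monomers out of filaments. On the plus strand of chromosome X, its 5′ UTR peak ran from 12975108 to 12975307 in both DF2 siRNA lists and began 2 bases upstream of the RefSeq start. That peak had a fold of 20.4 with DF2 siRNA 1 and 19.2 with DF2 siRNA 2, and a −log10 FDR of 3.75 and 2.40. The second site differed between lists. With DF2 siRNA 1 it was a 3′ UTR peak from 12976923 to 12977122, which was the gene's highest-scored peak there, with a fold of 21.0. With DF2 siRNA 2 it was a stop codon peak from 12976308 to 12976922 with a fold of 14.3. The ends of these peaks adjoin and they share 0 bases.

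PFN1 (ENSG00000108518) encodes profilin-1, which binds actin monomers and feeds them to growing filament ends. The DF2 siRNA 1 peak ran from 4947469 to 4948661 on the minus strand of chromosome 17 and covered 400 bases of 5′ UTR and coding sequence. The DF2 siRNA 2 peak was its 5′ part, 200 bases from 4948462 to the same end. Fold enrichment was 18.5 with DF2 siRNA 1 and 12.5 with DF2 siRNA 2. These were the lowest folds among the 10 genes' highest-scored peaks in each list. The −log10 FDR of the DF2 siRNA 2 peak was 1.39, percentile 2.34 of that list, while its score of 1033 stood at percentile 94.1. PFN1 was 1 of 2 genes of the 10 with a control peak within 20000 bases on the same strand, that of SLC25A11 at 7818 bases from the DF2 siRNA 1 peak.

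Of 16 other genes of actin monomers and their binding, 4 had a peak with DF2 siRNA 1, 3 with DF2 siRNA 2 and 3 with control siRNA. None was peaked in both DF2 siRNA lists and not in control. Those in all 3 lists were DIAPH1, a formin, ACTB, β-actin, and ACTG1. TMSB10, a relative of TMSB4X, had a peak with DF2 siRNA 1 alone. ACTG1, γ-actin, had the same 200-base stop codon peak in all 3 lists, from 81510547 to 81510746 on chromosome 17, with folds of 23.0 with DF2 siRNA 1, 20.3 with DF2 siRNA 2 and 19.4 with control siRNA. Its −log10 FDR was 3.88 with DF2 siRNA 1, 1.85 with DF2 siRNA 2 and 1.55 with control siRNA, although its score was at percentile 98.4 or above in each list. High score beside middling fold and weak FDR therefore also occurred in a gene that was called in control.

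FTH1, PKM, TMSB4X and PFN1 have processed pseudogenes elsewhere in the genome. The sources used here do not say how reads with several matches were handled, so the placing of reads at these genes is uncertain.

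YBX3 (ENSG00000060138) encodes a Y-box protein, which binds RNA and DNA through a cold shock domain. Its peak lay at the gene start on the minus strand of chromosome 12. The DF2 siRNA 1 peak covered 400 bases of 5′ UTR and coding sequence from 10722913 to 10723312, and the DF2 siRNA 2 peak covered the 5′ 200 of them, annotated as 5′ UTR. Fold enrichment was 47.2 with DF2 siRNA 1 and 25.0 with DF2 siRNA 2. The −log10 FDR of 12.81 with DF2 siRNA 1 and 4.50 with DF2 siRNA 2 gave YBX3 the highest DF2 siRNA 2 value among the highest-scored peaks of the 10 genes.

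YBX1, the best studied relative, had a 200-base peak over 5′ UTR and coding sequence in all 3 lists, from 42682427 to 42682626 on chromosome 1. Its fold was 147 with DF2 siRNA 1, 70.1 with DF2 siRNA 2 and 26.2 with control siRNA. The other cold shock relative with peaks was CARHSP1, also in all 3 lists, out of 8 genes in that group.

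L1CAM, ECEL1 and CLPTM1L encode membrane proteins. L1CAM (ENSG00000198910) encodes a cell adhesion molecule of the immunoglobulin superfamily, best known from axon growth. Its highest-scored peak lay at the 3′ end on the minus strand of chromosome X. With DF2 siRNA 1 it covered 1000 bases from 153861737 to 153862736, over coding sequence, stop codon and 3′ UTR. With DF2 siRNA 2 it covered 600 of those bases, from 153861937 to 153862536, annotated as 3′ UTR. Fold enrichment was 20.8 with DF2 siRNA 1 and 12.8 with DF2 siRNA 2, and −log10 FDR was 3.93 and 1.33. The DF2 siRNA 2 value stood at percentile 0.597 of its list, the lowest of the 10 genes, beside a score at percentile 96.0. The second L1CAM peaks did not share a place. The DF2 siRNA 1 one had a fold of 9.07 and blocks reaching far upstream of the RefSeq start (position -23050 from it), and the DF2 siRNA 2 one had a fold of 9.13 and no annotation.

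ECEL1 (ENSG00000171551) encodes a metallopeptidase of the M13 family, related to endothelin-converting enzyme. With DF2 siRNA 1 it had a 3′ peak on chromosome 2, minus strand, from 232479827 to 232480786, and the fold was 27.0. A second DF2 siRNA 1 peak, from 232485265 to 232487828, covered 1000 bases of 5′ UTR and coding sequence with a fold of 32.7. The single DF2 siRNA 2 peak covered 600 coding bases inside that second peak, with a fold of 12.6 and a −log10 FDR of 1.36. The 3′ peak, which had the higher score with DF2 siRNA 1 (558 against 486), had no counterpart with DF2 siRNA 2.

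CLPTM1L (ENSG00000049656) encodes a multi-pass membrane protein. Of the 10 genes it alone had 2 places shared between the DF2 siRNA lists, and these were the 5′ UTR and the stop codon. The 5′ UTR peak ran from 1344900 to 1345099 on the minus strand of chromosome 5 in both lists, starting at the RefSeq start, with a fold of 22.2 with DF2 siRNA 1 and 12.1 with DF2 siRNA 2. The stop codon peak covered 600 bases with DF2 siRNA 1 and 400 of them with DF2 siRNA 2, with folds of 29.1 and 14.8. By score the stop codon peak ranked far above the 5′ UTR peak, at percentiles 98.8 and 96.3 against 67.6 and 43.0, whereas by −log10 FDR the 5′ UTR peak was the higher in each list (6.31 against 5.51 with DF2 siRNA 1, and 2.16 against 1.54 with DF2 siRNA 2).

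Of 12 other genes of the L1 family and its partners, 3 had a peak with DF2 siRNA 1, 1 with DF2 siRNA 2 and 2 with control siRNA. ITGA5, an integrin subunit, had a stop codon peak from 54395261 to 54397331 on chromosome 12 in all 3 lists. Of 6 other M13 peptidases, ECE1 and ECE2 were in all 3 lists, and MME (neprilysin) had a peak with control siRNA alone, at a score of 15. CLPTM1, the namesake of CLPTM1L, counted as a gene of all 3 lists, but its peaks lay at different places. The DF2 siRNA peaks included the stop codon, with a −log10 FDR of 4.71 with DF2 siRNA 1 and 3.51 with DF2 siRNA 2, and the control peak, scored 3, lay near the 5′ end and had 1.35.

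HN1 (ENSG00000189159), listed in RefSeq as JPT1, encodes a small microtubule-associated protein. Its peak was the same in both DF2 siRNA lists, 200 bases on the minus strand of chromosome 17 from 75154234 to 75154531. Fold enrichment was 21.3 with DF2 siRNA 1 and 13.1 with DF2 siRNA 2, and −log10 FDR stood at percentiles 46.7 and 5.48 of these lists. Its relative HN1L had a stop codon peak in all 3 lists, with a −log10 FDR of 7.55 with DF2 siRNA 1, 3.45 with DF2 siRNA 2 and 2.89 with control siRNA.

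CNPY2 (ENSG00000257727) encodes a canopy protein of the endoplasmic reticulum. Its peak had the same 5 blocks in both DF2 siRNA lists, 600 bases on the minus strand of chromosome 12 from 56314993 to 56316136. Fold enrichment was 36.9 with DF2 siRNA 1 and 19.5 with DF2 siRNA 2, and −log10 FDR was 10.37 and 3.39. A second annotated gene, RP11-977G19.10, had peaks at the same place in both lists, so signal there cannot be assigned to one of these genes alone. The nearest control peak on that strand was that of PAN2, at 16732 bases. CNPY3 and CNPY4 had stop codon peaks in all 3 lists.

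Across the 9 family and pathway groups, 78 relatives were listed and 30 had a peak in some list: 26 with DF2 siRNA 1, 24 with DF2 siRNA 2 and 25 with control siRNA. Of those 30, 21 were in all 3 lists and 0 were in both DF2 siRNA lists and not in control, beside 3.56% of all genes. A count of 0 of 30 leaves an underlying share of up to about 10% possible, by an approximate limit of 3 over 30. In a group of 45 abundant housekeeping genes, which overlaps these relatives (ACTB and ACTG1 are in both), 29 had a peak in some list and 16 had one in all 3, EEF2 and TPT1 among them. Of the 29, 1, PTMS (parathymosin), had peaks in both DF2 siRNA lists and none in control, with folds of 25.5 with DF2 siRNA 1 and 15.4 with DF2 siRNA 2, and MYL12B and S100A10 had a peak with control siRNA alone.

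By the authors' annotation, 7 of the 10 genes (70%, 95% exact binomial interval 34.8 to 93.3) had a 5′ UTR peak in both DF2 siRNA lists, beside 32.6% of all genes with peaks in both lists. In 377 other genes with peaks in both DF2 siRNA lists and none in control the share was 43.8% (38.7 to 48.9), and in the 7090 genes with peaks in all 3 lists it was 32.0% (30.9 to 33.1). In 6 of the 10 genes a peak of each list began within 200 bases of the RefSeq start, taken as the 5′ end of the gene's whole span. For CNPY2, not among the 6, that end is at 56316346. The start window that gave its printed bases begins instead at 56315988, inside the peak. No share over all genes was computed beside the count of 6, so it is not read as a trait of these genes. A stop codon peak in both lists was annotated in 4 of the 10 (40%, 12.2 to 73.8), beside 59.2% of all genes with peaks in both lists. It was annotated in 32.9% (28.2 to 37.9) of the 377 and 60.6% (59.5 to 61.8) of the 7090. Of those 4, FTH1, HN1 and CNPY2 had the annotation on peaks that began between 26 bases before (-26) and 210 bases after the RefSeq start, and the sources used here do not name the transcripts behind it. The median RefSeq span was 13639 bases for the 10 genes, 18793 for the 377 other genes (348 with a span) and 31101 for genes in all 3 lists. These intervals cover counting error only, and the 10 genes were picked by score, so no difference in share is claimed for them.

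**Figure D2:**
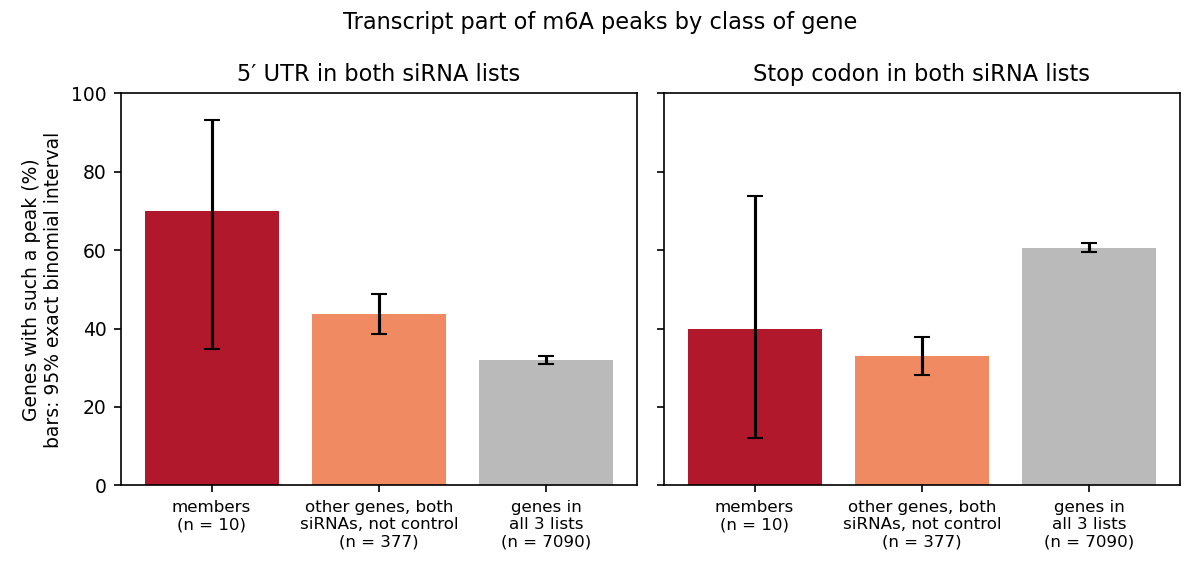
Share of genes (y axis, percent) whose peaks were annotated as 5′ UTR (left) or stop codon (right) in both DF2 siRNA lists, for the 10 genes (members), the 377 other genes with peaks in both DF2 siRNA lists and none in control, and the 7090 genes in all 3 lists. Error bars are 95% exact binomial intervals, and the wide ones of the 10 genes run from 34.8 to 93.3% and from 12.2 to 73.8%.

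The deposited values rank these peaks differently by score than by fold or FDR. With DF2 siRNA 1 the highest-scored peak of each gene stood between percentiles 90.5 and 99.9 by score (median 96.3), between 58.2 and 93.0 by fold (median 72.6) and between 36.8 and 85.5 by −log10 FDR (median 53.4). With DF2 siRNA 2 the ranges were 89.5 to 99.7 by score, 30.5 to 63.9 by fold (median 42.2) and 0.597 to 48.5 by −log10 FDR (median 12.2). All 10 genes therefore sat in the lower 50% of the DF2 siRNA 2 list by −log10 FDR and 6 in its lower 50% by fold, while with DF2 siRNA 1 the counts were 4 and 0. An FDR of 0.01 or more (−log10 FDR of 2 or less) was listed with DF2 siRNA 2 for the highest-scored peaks of 5 genes. These were PFN1, L1CAM, CLPTM1L, ECEL1 and HN1, and with DF2 siRNA 1 there were 0. Among all 1331 DF2 siRNA 2 peaks in the top 10% by score, 20 had such an FDR. Of these 20, 5 belonged to the 10 genes and 14 to genes in all 3 lists. The median −log10 FDR percentile of the 1331 peaks was 86.4. With DF2 siRNA 1, 8 of 1314 such top peaks had that FDR, 0 of them from the 10 genes.

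**Figure D3:**
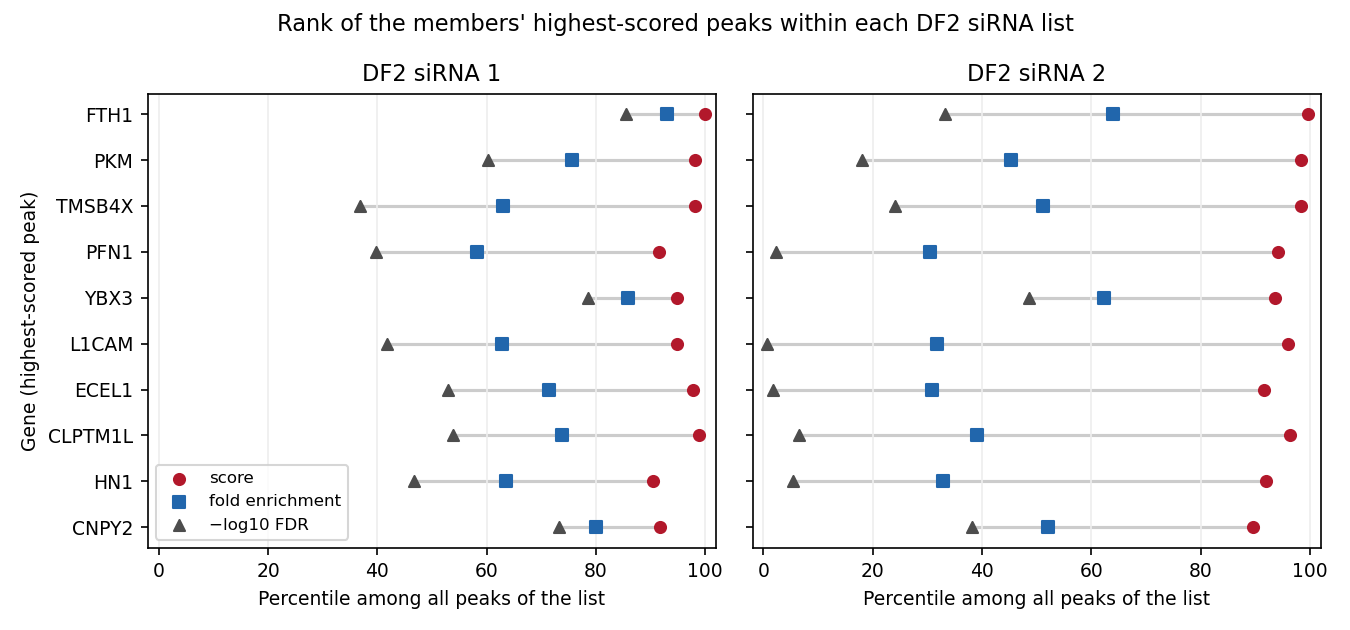
Percentile of each gene's highest-scored peak among all peaks of the same list (x axis), by score, fold enrichment and −log10 FDR, for DF2 siRNA 1 (left) and DF2 siRNA 2 (right). Scores lie between 89.5 and 99.9 in both panels, and the −log10 FDR points of the right panel all lie at 48.5 or lower.

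Over whole lists score and fold were closely related, with a Spearman correlation across peaks of 0.93 with DF2 siRNA 1, 0.82 with DF2 siRNA 2 and 0.77 with control siRNA, where the peaks of a list share its libraries. In the top 10% by score, 12 of 1314 DF2 siRNA 1 peaks and 9 of 1331 DF2 siRNA 2 peaks belonged to the 10 genes. The lower 50% by fold held 10 of the 1314 (0.761%, 0.366 to 1.40), 0 of them from the 10 genes, and 44 of the 1331 (3.31%, 2.41 to 4.41), 6 of them from the 10 genes. Of those 44, 36 were peaks of genes in all 3 lists. In the control list the share was 5.70% of 1527 top peaks. The median fold percentile of top peaks of all genes in all 3 lists was 94.5 with DF2 siRNA 1 and 90.2 with DF2 siRNA 2, and for genes in both DF2 siRNA lists and not in control it was 74.3 and 39.1. The last 2 medians rest on 18 and 11 peaks, of which 12 and 9 belong to the 10 genes, so they largely restate the values of genes picked by score.

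**Figure D4:**
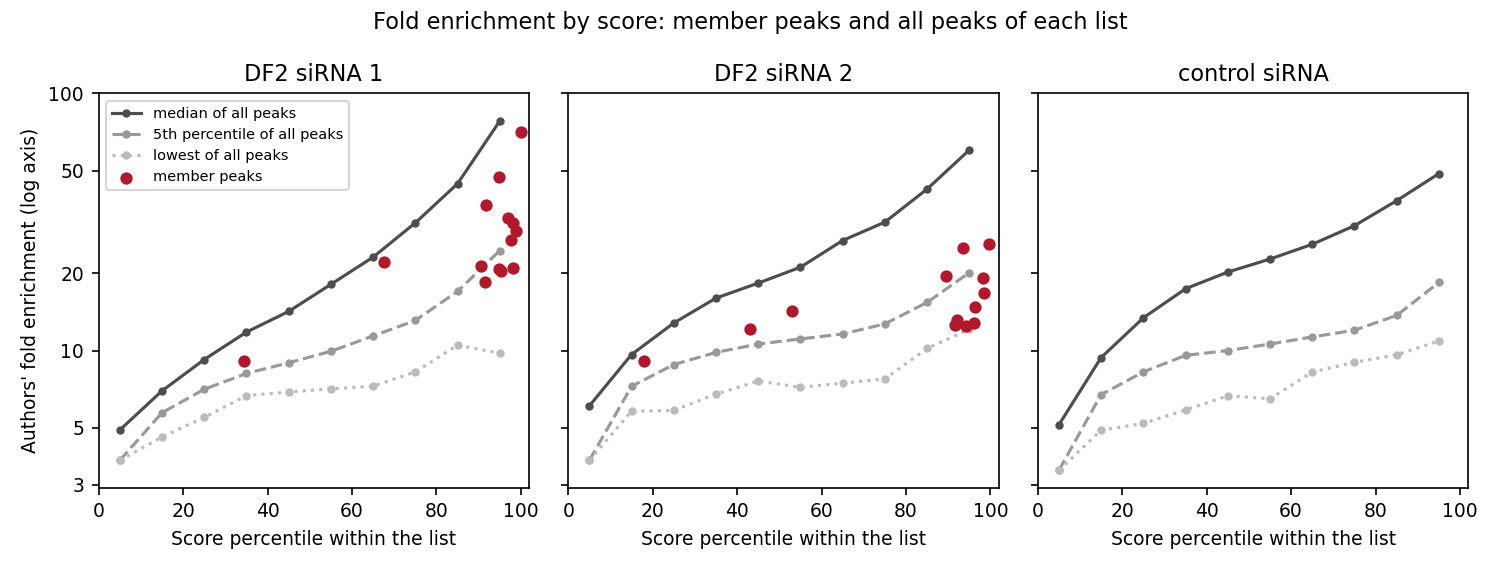
Authors' fold enrichment (y axis, log scale) against score percentile within each list (x axis). Red points are the 27 peaks of the 10 genes, and lines are the median, the 5th percentile and the lowest fold of all peaks in each 10% of scores. All red points in the top 10% lie below the median lines of 78.2 (DF2 siRNA 1) and 60.3 (DF2 siRNA 2), and the control siRNA panel holds no red point.

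Ordered by mean score percentile over both DF2 siRNA lists, the 10 genes took 10 of the first 11 places among the 387, from FTH1 (99.8) to CNPY2 (90.6). AL021546.6, at place 9 with 92.8, was not among the genes chosen. The next below were RP11-977G19.10 (90.4), EDF1 (90.1), MYDGF (89.0), FBXW5 (88.8) and LRRC59 (87.8), so no gap separates those inside from those outside. EDF1 had folds of 19.0 with DF2 siRNA 1 and 12.3 with DF2 siRNA 2, close to those of PFN1, and FBXW5 had 38.5 and 21.8, close to those of CNPY2. Ordered by mean fold percentile instead, 3 of the 10 were among the first 10 of the 387: FTH1 at place 1, YBX3 at 3 and CNPY2 at 7. PFN1 stood at place 118.

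YTHDF2 itself had 1 peak in each list, and the lists do not show how far either siRNA lowered its RNA. Of 8 bone and mesenchymal markers, 3 had a peak with DF2 siRNA 1, 2 with DF2 siRNA 2 and 2 with control siRNA. RUNX2 and COL1A1 were in all 3 lists, VIM was in the DF2 siRNA 1 list alone, and the other 5 had no peak. Of 7 epithelial markers, KRT8 and CLDN4 had peaks in both DF2 siRNA lists and none in control, at folds of 7.93 and 5.60 with DF2 siRNA 1 and of 12.2 and 19.1 with DF2 siRNA 2, and the other 5 had no peak. By score these KRT8 and CLDN4 peaks were low, at percentiles 20.8 and 5.75 with DF2 siRNA 1 and 30.1 and 21.7 with DF2 siRNA 2. Of all genes with a peak, 3.56% had this pattern. A part of other cells in the values of the 10 genes was not tested.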

How the data were processed

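Anti-m6A immunoprecipitates and inputs of U2OS cytoplasmic RNA were sequenced. Reads were aligned with HISAT2 to hg38, per the submitters' processing notes. The HISAT2 version, peak caller, annotation and meaning of the score were not given in the sources used here. For every condition the authors deposited a single list, named as a merge of r1 with r2, while the labels hold 1 input and 1 immunoprecipitate. Each deposited peak has a whole-number score, a fold enrichment (ratio) and a −log10 FDR, per the file headers, and all have an FDR under 0.05. Read depth is unknown, so precision is that of the number of peaks.

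Starts were raised by 1, and block sizes were reversed on the minus strand, where they run opposite to block starts. Peaks shared a place when their blocks overlapped by 1 base or more on one strand. Genes were counted by Ensembl identifier. Percentiles are midranks within a list. RefSeq tables (GRCh38.p14) gave gene spans and start windows, and HN1 was matched to JPT1 by place. Intervals are exact binomial at 95%. Python 3.11.15, numpy 2.4.6, pandas 2.3.3 and scipy 1.17.1 were used, and overlaps were tested on simulated data. Alternatives were a stricter FDR, top peaks by score or fold, other overlap rules, updated gene names and each DF2 siRNA alone.

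The 10 genes, the gene groups and the alternatives were chosen with earlier results of these data known. All 10 genes were named, with places 1 to 16 by mean score percentile, and from each group those peaked in both DF2 siRNA lists or in control alone, with up to 4 others in group order peaked in all 3 lists. TFRC, TMSB10, neighbouring genes with control peaks and the markers fall outside this rule and were named after their values were seen.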

Additional observations from a re-analysis of the deposited data

How the results depend on the processing

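The 10 genes kept their pattern with equal numbers of top-scored peaks and in the top 50% by score. They were picked by high score and no control peak, so the selection fixed this outcome in advance and nothing is read from it. With an FDR under 0.01 in every list, 6 of the 10 were peaked in both DF2 siRNA lists and not in control, 6 shared a place and 6 overlapped no control peak (FTH1, PKM, TMSB4X, YBX3, CLPTM1L and CNPY2). In the top 50% by fold each of these counts was 4 (FTH1, TMSB4X, YBX3 and CNPY2), and 4 genes had a 5′ UTR peak in both lists, against 7. The stricter limits remove peaks by construction. Genes peaked in both DF2 siRNA lists and not in control, 387 in all, numbered 232 in the top 50% by score, 933 with DF2 siRNA 1 alone and 695 with DF2 siRNA 2 alone. With every control peak kept, an alternative chosen after seeing the data, they numbered 191 at an FDR under 0.01, 152 in the top 50% by score and 22 in the top 50% by fold. The other 26 of 39 alternative values, among them all overlap rules, were within 1.5 times of the reported count. No paired analysis was possible because each condition has 1 merged peak list and no test was made. Depth limits every absence of a peak.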
